A study of Mus musculus with 6 samples.

Results

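The named long noncoding RNAs of neurons examined here were Malat1, Neat1, Miat, Rmst, Snhg11, Gas5 and Snhg1, 7 genes, of which all but Malat1 were among the 37074 gene names carried by the array, so that 6 could be read. They were read through every probe that the scanner files list under exactly one of these symbols, 16 of 56605 probes in all. Hypothalamic RNA of male C57BL/6J mice was hybridized, 1 mouse per array, to 6 Agilent SurePrint G3 arrays with probes of 60 bases, 3 labelled GSK-J4 and 3 labelled vehicle. All the mice carried diet-induced obesity (DIO) from a high-fat diet with 60 kcal% fat, including the vehicle group, and no group of lean or genetically altered mice was part of the arrays. GSK-J4, a small molecule inhibitor of the H3K27me3 demethylases Kdm6a and Kdm6b, was given at 30 mg/kg, and the other group received its vehicle. By the series description the tissue was taken on day 4 of exposure. The methods describe daily injections over a longer course and do not give the day of the arrays. The question was which of these RNAs differed between the inhibitor and the vehicle, and whether the probes of a gene gave the same answer.

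The vehicle arrays shared slide 1 and a scan, and the GSK-J4 arrays shared slide 2 and another scan, so for every value given here slide, scan and treatment cannot be told apart. The raw signal had its 75th percentile at 787 to 916 on the vehicle arrays and at 406 to 461 on the GSK-J4 arrays, and 62.8% to 63.6% of the probes were well above background on the former against 57.7% to 58.7% on the latter. Of the hypothalamic marker genes, Npy, Hcrt, Oxt, Agrp and Crh passed the filter described below, as did Pomc, whereas Pmch, Avp, Trh, Sim1 and Nkx2-1 did not. Some that passed were dim. The mean log2 values on the GSK-J4 and vehicle arrays were 4.84 and 4.74 for Agrp, 5.57 and 4.76 for Hcrt and 5.79 and 5.70 for Oxt. The 5th percentile of the probes that passed was 4.61. Npy (11.94 and 11.52) and Crh (8.90 and 8.49) were brighter. The pituitary markers Gh, Prl, Cga and Tshb did not pass the filter either. Pomc had been listed with them and was the 1 of these 5 that passed.

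Long noncoding RNAs are transcripts that work without being translated, and many of them stay in the nucleus. Neat1 is the scaffold of paraspeckles, nuclear bodies that hold RNA-binding proteins, and Malat1 collects in the neighbouring nuclear speckles, where splicing factors gather. Miat, also called Gomafu, forms a nuclear domain of its own in neurons and binds splicing factors, and Rmst is known for working with Sox2 in the making of neurons. Gas5, Snhg1 and Snhg11 are host genes of small nucleolar RNAs (snoRNAs), which are cut from their introns and guide the chemical modification of ribosomal RNA. The spliced remainder of Gas5 and Snhg1 is short-lived, because it is read by ribosomes and removed by nonsense-mediated decay.

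The probes on which the results turned are printed first, 5′ to 3′ as the scanner files hold them. Positions are those of the files, on mm9. Malat1 had none, because 0 probes were listed under its symbol, its synonyms, its RefSeq transcripts or its description, so no value is given for it. Whether a probe listed only by its coordinates lies over Malat1 was not looked up. Miat is shown because its probes differed most from one another. It lies on the minus strand of chromosome 5, and the capitals mark runs of at least 12 bases that another Miat probe also holds.
Miat A_55_P2741126: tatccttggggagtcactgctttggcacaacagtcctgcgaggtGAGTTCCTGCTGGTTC
Miat A_55_P2741116: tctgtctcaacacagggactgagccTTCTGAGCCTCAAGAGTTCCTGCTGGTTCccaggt
Miat A_55_P2508475: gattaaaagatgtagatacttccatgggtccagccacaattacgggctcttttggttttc

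The first of these probes joins pieces of chr5:112650880-112657119, a stretch of 6240 bases, and the second pieces of chr5:112650874-112653266, so both cross splice junctions in the 5′ part of the transcript, at bases 169 and 666 of the records they were designed on. The pair shared 16 bases and was therefore not independent. The third probe, A_55_P2508475, lies in one piece at chr5:112642308-112642367 and at base 8640 of its record, far toward the 3′ end. The last Miat probe, A_55_P2741091, crosses a junction within chr5:112650979-112653241 and shares 14 bases with the second.

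Both Neat1 probes lie in one piece on the minus strand of chromosome 19, A_55_P2740113 at chr19:5844378-5844437 and A_65_P09473 at chr19:5844123-5844182, at bases 1045 and 1298 of the same record. As background, Neat1 has a short and a long transcript that start at the same site. The probe of Snhg1 is shown because it was the one member probe that passed the test in the higher direction, and it lies at chr19:8798913-8798972 on the plus strand. No shared run marks these probes, so they carry no capitals.
Neat1 A_55_P2740113: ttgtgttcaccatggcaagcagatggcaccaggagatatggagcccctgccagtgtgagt
Neat1 A_65_P09473: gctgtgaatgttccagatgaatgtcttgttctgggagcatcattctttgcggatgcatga
Snhg1 A_55_P2117710: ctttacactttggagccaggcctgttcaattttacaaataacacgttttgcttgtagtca

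The neighbouring probes of Rmst and of Snhg11 are shown because they overlap and therefore measure nearly the same stretch. The Rmst pair, at chr10:91624893-91624952 and chr10:91624869-91624928 on the minus strand, shares 36 bases in capitals. The remaining Rmst probes are A_65_P15745 at chr10:91625503-91625562, printed with the pair because it had the lowest difference of the gene, and A_55_P2510222 at chr10:91544536-91544595. The Snhg11 pair, at chr2:158206508-158206567 and chr2:158206523-158206582 on the plus strand, shares 45 bases. A further Snhg11 probe, A_55_P2488169, lies downstream at chr2:158211822-158211881.
Rmst A_65_P15745: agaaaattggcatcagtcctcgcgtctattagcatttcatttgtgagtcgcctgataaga
Rmst A_55_P2935435: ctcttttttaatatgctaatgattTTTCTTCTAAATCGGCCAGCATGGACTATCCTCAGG
Rmst A_55_P2935445: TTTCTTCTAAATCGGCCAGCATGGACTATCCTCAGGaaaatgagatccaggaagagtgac
Snhg11 A_55_P2047809: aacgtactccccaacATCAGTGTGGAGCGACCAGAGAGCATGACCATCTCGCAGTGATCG
Snhg11 A_51_P385114: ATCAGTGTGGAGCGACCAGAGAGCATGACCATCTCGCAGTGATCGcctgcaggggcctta

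Among the 14 member probes that passed the filter, Snhg1 was higher and the 3′ probe of Miat was lower on the GSK-J4 arrays, and the other 12 did not pass the test. Signals are the quantile normalized log2 values that the authors deposited, and a difference is the mean of the 3 GSK-J4 arrays minus the mean of the 3 vehicle arrays of the same probe. The filter asked that every array of one group or the other show the probe well above background, which 34444 probes did. The test was limma across all of them, with Benjamini-Hochberg adjustment and a threshold of 0.05. Over all probes tested, 8.39% were called higher and 8.42% lower, against 1 of 14 in each direction here, so the share of calls was near the background. Of the 16 member probes, A_55_P2741091 of Miat and A_55_P2510222 of Rmst were well above background on 0 of the 6 arrays, and neither entered the test.

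The methods of the study used a 1.5-fold change with an unadjusted p up to 0.05. With the p taken from limma, 0 member probes were higher and 2 were lower by these thresholds, A_65_P09473 of Neat1 and A_55_P2508475 of Miat. The same thresholds took 4.79% of all probes tested as higher and 7.86% as lower. The arrays of the groups did not overlap for 2 member probes in the higher and 3 in the lower direction, where all probes gave 24.5% and 21.2%. The median difference of the 14 probes was -0.11, beside 0.02 over all probes tested, with 5 probes on the higher and 9 on the lower side. The unadjusted p was under 0.05 for 5 of the 14, beside 12577 of all 34444 probes tested, so this count too was near the background. With 3 arrays per group, the smallest p of an exact two-sided permutation test over the 20 orders of the arrays was 0.1.

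**Figure D1:**
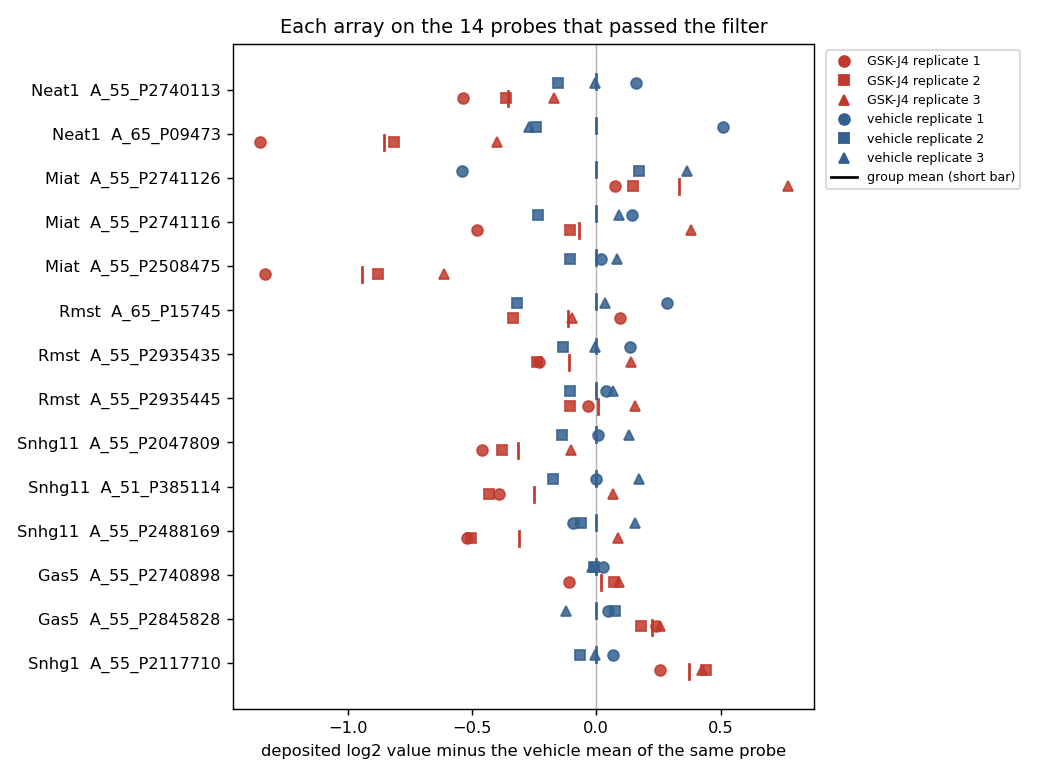
The deposited log2 value of each array minus the vehicle mean of the same probe (horizontal axis, log2) is drawn for the 14 probes that passed the filter, with symbols for the replicates and short bars for the group means. The GSK-J4 arrays lay left of all vehicle arrays for both Neat1 probes and for Miat A_55_P2508475, and right of them for Gas5 A_55_P2845828 and Snhg1.

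**Figure D2:**
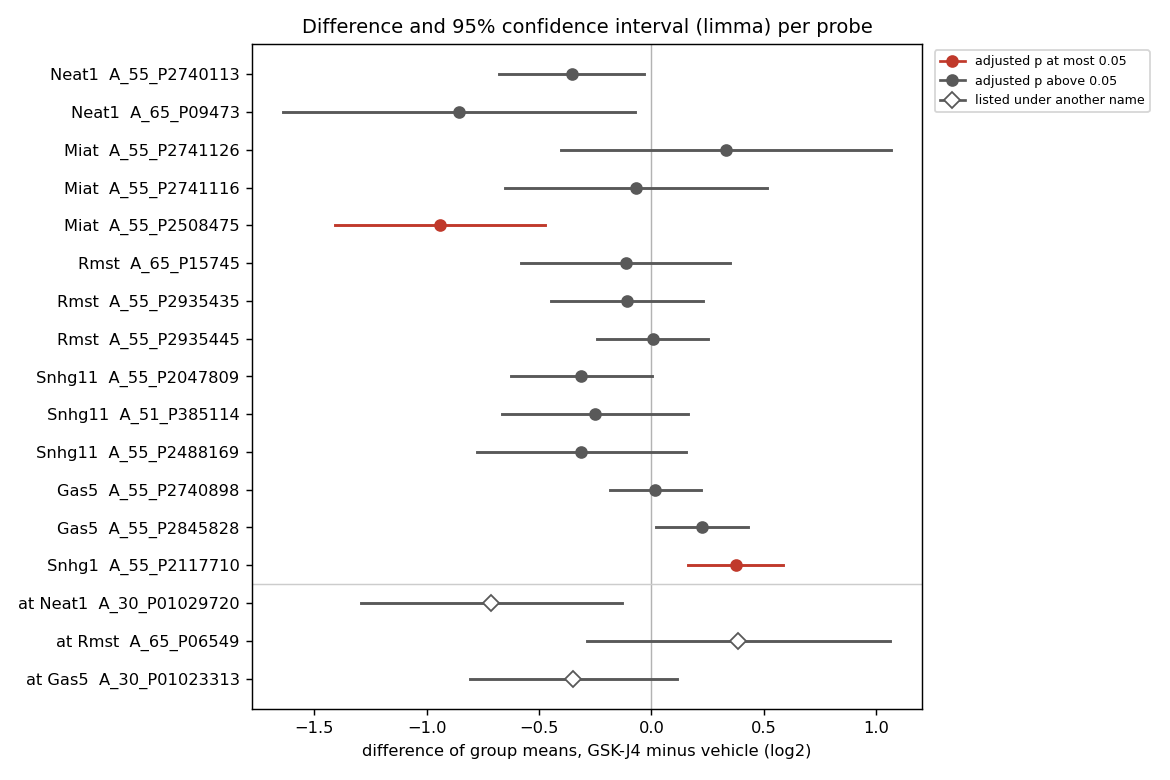
Points are the differences of the group means, GSK-J4 minus vehicle (log2), with 95% confidence intervals from limma, for the 14 member probes and, under the line, for 3 probes at the same genes that the files list under another name. The intervals of Miat A_55_P2508475 (-1.41 to -0.47) and Snhg1 (0.16 to 0.59) belong to the member probes that passed the test.

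Miat differed by probe. On the 3′ probe A_55_P2508475 the signal was 14.10, 14.56 and 14.82 on the GSK-J4 arrays and 15.46, 15.33 and 15.52 on the vehicle arrays. Every GSK-J4 array was below every vehicle array, and the mean fell by 0.94 on the log2 scale, a 1.92-fold change (standard error 0.19, limma adjusted p = 0.0304, exact permutation p = 0.1). In a bulk tissue such as this, fewer cells of a type and less RNA per cell cannot be told apart. The probe was among the brightest of the array, at percentile 98.1 of the mean levels of the probes tested. Its adjusted p was above the threshold without any one vehicle array (0.0882 without replicate 1, 0.0905 without replicate 2 and 0.1 without replicate 3) and without GSK-J4 replicate 2 (0.0589). The difference itself ranged from -1.10 to -0.75 when single arrays were omitted, and was -0.53 after 75th percentile scaling (adjusted p = 0.0845). Over all 34444 probes tested, omitting a vehicle array left 4 to 12 called lower, beside 2899 with all arrays.

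The 5′ probes of Miat gave other values. A_55_P2741126, designed on an isoform that the files call Gomafu isoform#10, read 6.33, 6.40 and 7.02 on the GSK-J4 arrays and 5.71, 6.43 and 6.62 on the vehicle arrays. The groups overlapped, with a difference of 0.33 (standard error 0.30, 95% interval -0.40 to 1.07, limma adjusted p = 0.457). A_55_P2741116 read 6.09, 6.46 and 6.95 against 6.71, 6.33 and 6.66, likewise with overlap. Its difference was -0.07 (standard error 0.24, 95% interval -0.65 to 0.51, limma adjusted p = 0.854), and it turned to 0.14 without GSK-J4 replicate 1 and to 0.0034 without vehicle replicate 1.

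To compare the 5′ and 3′ probes, the value of a 5′ probe was subtracted from that of the 3′ probe on each array. The 5′ probes were dim, at percentiles 26.4 and 27.7 of the mean levels, whereas the 3′ probe was at 98.1. A_55_P2741126 was also designed on another record than the 3′ probe, so that pair need not read the same transcript. Against A_55_P2741126 this gap was 7.78, 8.16 and 7.80 on the GSK-J4 arrays and 9.74, 8.91 and 8.90 on the vehicle arrays. It was narrower on all 3 GSK-J4 arrays, a change of -1.27 on the log2 scale, with an exact permutation p of 0.1, the smallest this design allows. Against A_55_P2741116 the change of the gap was -0.87, again without overlap and with an exact p of 0.1. The pairs were chosen with their values known, and how many other probe pairs of the array would separate in this way was not counted.

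The Neat1 probes both had lower values on the GSK-J4 arrays, and neither passed the adjusted test. A_55_P2740113 read 5.67, 5.84 and 6.03 on the GSK-J4 arrays and 6.36, 6.05 and 6.20 on the vehicle arrays. The highest GSK-J4 array lay just under the lowest vehicle array, and the difference was -0.36 (standard error 0.13, limma adjusted p = 0.112). A_65_P09473 read 5.84, 6.38 and 6.79 against 7.70, 6.95 and 6.92. It differed by -0.86, a 1.81-fold change (standard error 0.32, limma adjusted p = 0.114), and again the groups did not overlap. The exact permutation p was 0.1 for each.

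A further probe, listed in capital letters as NEAT1 and therefore outside the members, lies on the same strand at chr19:5842654-5842713, in what the files describe as a long intergenic noncoding RNA. It read 10.89, 11.39 and 11.72 on the GSK-J4 arrays and 12.29, 11.96 and 11.89 on the vehicle arrays. Its difference was -0.71 (standard error 0.24, limma adjusted p = 0.0886, exact permutation p = 0.1), so all 3 probes at the gene lay on the lower side without overlap of the groups and above the threshold of the adjusted test. Vehicle replicate 1 had the highest value on all 3 probes. The same array carried signal of the choroid plexus, the tissue that makes the cerebrospinal fluid: the linear signals of its markers Ttr, Folr1, Kl and Clic6 summed to 97700 there and to 2401 to 11530 on the other 5 arrays, with all 4 markers measured and 0 called by limma (0 also at an unadjusted p under 0.05 and by the t-test of the methods). Without vehicle replicate 1 the differences of the 2 Neat1 probes were -0.27 and -0.60, with limma adjusted p-values of 0.248 and 0.238. Leaving out GSK-J4 replicate 1 instead gave much the same, -0.27 and -0.61 (adjusted p = 0.23 and 0.231). The part of the choroid plexus in these differences was not tested.

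None of the partners of Neat1 passed the test. Of 16 genes for paraspeckle proteins, all measured, 0 were called in either direction by limma. Their median difference was -0.12, beside 0.04 over all 22117 genes, with 5 on the higher and 11 on the lower side. The unadjusted p was under 0.05 for 3 of the 16, and the t-test of the methods called 0 after adjustment. Without equal variances that test called 56 of all 34444 probes higher and 37 lower, so 0 calls in a short list say little. With 1 probe per gene, as counted for this list and those below, limma called 8.99% of all 22117 genes higher and 7.79% lower. In the fit over all probes, 7879 of these 22117 genes had an unadjusted p under 0.05. The largest differences of the paraspeckle genes were -0.39 for Sfpq (limma adjusted p = 0.23) and -0.34 for Rbmx (adjusted p = 0.15), on the other side 0.10 for Smarca4 (0.596) and 0.09 for Tardbp (0.655). Sfpq and Nono are core proteins of the paraspeckle, and Nono differed by -0.23 (adjusted p = 0.0799). Of 15 genes for nuclear speckle proteins 0 were called by limma as well, 6 with an unadjusted p under 0.05, and 1 was called by the t-test with equal variances. Their median was -0.10, from -1.16 for Srsf6 (adjusted p = 0.293) and -0.42 for Srsf3 (0.0539) to 0.25 for U2af2 (0.0668) and 0.11 for Prpf6 (0.46).

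Rmst gave differences near 0 on its 3 measured probes, none of which passed the test. A_65_P15745 read 6.42, 5.99 and 6.23 on the GSK-J4 arrays and 6.61, 6.01 and 6.36 on the vehicle arrays, a difference of -0.11 (95% interval -0.58 to 0.35, limma adjusted p = 0.691). The overlapping pair read 8.78, 8.77 and 9.15 against 9.15, 8.88 and 9.003 on A_55_P2935435. On A_55_P2935445 it read 9.42, 9.34 and 9.61 against 9.49, 9.34 and 9.52. The groups overlapped on each of the 3 probes. The differences of the pair were -0.11 (-0.44 to 0.23, adjusted p = 0.599) and 0.0059 (-0.24 to 0.25, adjusted p = 0.973). A probe listed as Gm3515, which RefSeq gives as a synonym of Rmst, differed by 0.39 (standard error 0.27, adjusted p = 0.35) and was well above background on 2 of the GSK-J4 and all 3 vehicle arrays.

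Of 13 genes for partners of Miat and Rmst, limma called 0 higher and 2 lower, with a median of -0.12. Those that fell were the RNA-binding proteins Celf1, by 0.35 (standard error 0.06, adjusted p = 0.0265), and Celf2, by 0.36 (standard error 0.07, adjusted p = 0.0271). With 75th percentile scaling these were -0.17 (adjusted p = 0.126) and -0.05 (0.628). Celf proteins set splice site choice, and Celf3 is known to bind Miat. Celf3 differed by 0.01 (adjusted p = 0.974) and the splicing factors Qk by 0.09 (0.454) and Sf1 by -0.15 (0.469). Sox2, the transcription factor that Rmst works with, differed by -0.22 (0.195).

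Snhg11, a host gene expressed mainly in neurons, had lower means on all 3 probes, none of which passed the test. The downstream probe A_55_P2488169 was the brightest member, at percentile 99.4, and read 15.51, 15.52 and 16.12 on the GSK-J4 arrays and 15.93, 15.97 and 16.18 on the vehicle arrays. GSK-J4 replicates 1 and 2 lay below every vehicle array, and replicate 3 among them. The difference was -0.31 (standard error 0.19, limma adjusted p = 0.282, exact permutation p = 0.3), and -0.51 without GSK-J4 replicate 3 (adjusted p = 0.0474). It turned to 0.16 after 75th percentile scaling (adjusted p = 0.546).

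On the upstream pair, too, GSK-J4 replicates 1 and 2 lay below every vehicle array and replicate 3 did not. A_55_P2047809 read 10.84, 10.91 and 11.19 against 11.30, 11.16 and 11.43, a difference of -0.31 (standard error 0.13, limma adjusted p = 0.137). A_51_P385114 read 11.33, 11.29 and 11.78 against 11.72, 11.54 and 11.89, a difference of -0.25 (standard error 0.17, adjusted p = 0.325). With 45 shared bases these readings are not separate evidence. Of 8 neuron markers, 6 had higher and 2 lower means, the latter being Snap25 (-0.44, adjusted p = 0.0844) and Rbfox3 (-0.38, 0.503). Tubb3 rose the most (0.46, 0.0683). Limma called 0 of the 8 markers, with a median difference of 0.08, and 2 had an unadjusted p under 0.05. The t-test of the methods called 0. Their summed linear signal was 205200 to 240600 on the GSK-J4 arrays and 212500 to 221100 on the vehicle arrays.

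GSK-J4 replicate 3 had the highest value of its group on 12 of the 14 member probes, whereas it was the highest of its group for 41.0% of all probes tested. Its summed signal was the lowest of the 6 arrays for neuron markers (205200 against 212500 to 240600), for microglia markers (14160 against 18400 to 25150) and for those of ependyma and tanycytes (611 against 955 to 1307), and the highest for endothelial markers (15020 against 10460 to 13620). The part of this array in the results was tested by leaving it out. The differences of Neat1 A_65_P09473 and Miat A_55_P2508475 were then -1.08 and -1.10.

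Of the short-lived host genes, Snhg1 was higher on the GSK-J4 arrays and Gas5 was not called. Snhg1 read 8.37, 8.55 and 8.54 on the GSK-J4 arrays and 8.18, 8.05 and 8.11 on the vehicle arrays. The groups did not overlap, and the difference was 0.37, a 1.30-fold change (standard error 0.09, limma adjusted p = 0.0392, exact permutation p = 0.1). The call rested on 1 probe, and of the arrays only GSK-J4 replicate 1 could be left out without losing it (adjusted p = 0.0492). Without another array the adjusted p was 0.0772 to 0.13, namely 0.0853 and 0.0772 without GSK-J4 replicates 2 and 3 and 0.0829, 0.13 and 0.117 without vehicle replicates 1, 2 and 3. The difference stayed between 0.34 and 0.43. The call was also lost with 75th percentile scaling (0.29, adjusted p = 0.0731) and with normexp (0.30, 0.0648). Over all 34444 probes tested, omitting a vehicle array left 1 to 2 called higher, beside 2889 with all arrays.

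Gas5 was measured at 2 places on chromosome 1, plus strand. A_55_P2740898 crosses a junction within chr1:162967641-162968147 and read 14.69, 14.87 and 14.89 on the GSK-J4 arrays and 14.83, 14.79 and 14.78 on the vehicle arrays. The difference was 0.02 (standard error 0.08, 95% interval -0.19 to 0.22, limma adjusted p = 0.892). A_55_P2845828, at chr1:162968590-162968649, read 13.81, 13.75 and 13.82 against 13.61, 13.64 and 13.45. Here the groups did not overlap, and the difference was 0.23 (standard error 0.08, limma adjusted p = 0.111, exact permutation p = 0.1). The gap between the probes on the same array changed by 0.21 (exact permutation p = 0.1, the smallest this design allows). As for Miat, the pair was chosen with its values known, and other probe pairs of the array were not counted. A probe inside the gene on the same strand, listed by its coordinates as a long intergenic noncoding RNA (A_30_P01023313), differed by -0.35 (standard error 0.19, adjusted p = 0.233).

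The other snoRNA host genes went both ways. Of 28 listed, 25 were measured, with 2 called higher, 4 lower and a median difference of 0.03. Snhg9 rose by 0.49 (standard error 0.08, limma adjusted p = 0.0196) and Rpsa, a ribosomal protein gene, by 0.31 (0.07, 0.038). Snhg7 fell by 0.75 (0.15, 0.0309), Taf1d, a subunit of the initiation factor of RNA polymerase I, by 0.55 (0.10, 0.025), Snhg14 by 0.43 (0.07, 0.022) and the chaperone gene Hspa8 by 0.32 (0.08, 0.0442). Hspa8 turned to 0.13 with 75th percentile scaling (adjusted p = 0.214) and Snhg14 to 0.06 with the GC trend removed (0.688), where Rpsa was at 0.05 (0.647). Snhg3, Snhg8 and Snhg12 differed by 0.25 (0.0772), 0.28 (0.0811) and 0.08 (0.386), and the values after these 3 are adjusted p-values.

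Of 17 genes for snoRNA-binding proteins and nonsense-mediated decay, 16 were measured, 1 was called in each direction and the median was 0.02. Nop10, a protein of the H/ACA snoRNA particles, rose by 0.29 (standard error 0.07, adjusted p = 0.0456), and Smg5, a factor of nonsense-mediated decay, fell by 0.47 (standard error 0.08, adjusted p = 0.0223). Neither call held throughout, since Nop10 was at 0.22 with the GC trend removed (adjusted p = 0.113) and Smg5 at -0.22 with 75th percentile scaling (0.133). The helicase of that pathway, Upf1, differed by 0.24 (adjusted p = 0.0576) and its kinase Smg1 by -0.43 (0.0781).

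Among 25 other named long noncoding RNAs, 18 were measured, 3 were called higher and 3 lower, and the median was -0.23. Kcnq1ot1, an antisense RNA of an imprinted domain, fell by 1.45 (standard error 0.13, adjusted p = 0.00985), Meg3, an imprinted RNA abundant in neurons, by 0.72 (0.17, 0.0403), and Tug1 by 0.26 (0.06, 0.0451). Rian, from the same imprinted cluster as Meg3, rose by 0.97 (0.24, 0.0442), Dlx1as by 1.02 (0.09, 0.00985) and Jpx by 0.39 (0.09, 0.0401). With 75th percentile scaling Meg3 was at -0.27 (adjusted p = 0.269) and Jpx at 0.25 (0.0926). With the GC trend removed Meg3, Tug1 and Jpx were not called either (0.0631, 0.0582 and 0.0679). Dlx1as was dim, with means of 5.97 on the GSK-J4 and 4.95 on the vehicle arrays. Its difference was 0.44 with normexp (limma adjusted p = 0.0132). Over these lists of related genes together limma called 6 higher and 10 lower, and it called 0 in either direction without any one of the vehicle arrays. The lists were drawn up with earlier results of the arrays known, and their counts are descriptions.

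Other cell types also differed on single markers. By limma, 1 of 6 microglia markers was called higher (C1qa), 1 of 2 oligodendrocyte precursor markers (Cspg4), 1 of 4 of ependyma and tanycytes (Rax) and 0 of 6 astrocyte, 0 of 6 oligodendrocyte, 0 of 4 endothelial and 0 of 4 choroid plexus markers. At an unadjusted p under 0.05 there were 2 astrocyte, 1 oligodendrocyte and 0 endothelial markers, and the t-test of the methods called 0 of these 3 lists. Npy, listed with the hypothalamic markers, and Pomc, listed with the pituitary markers, were called higher, by 0.42 (standard error 0.07, adjusted p = 0.024) and 0.85 (standard error 0.14, adjusted p = 0.0211). With the GC trend removed Npy was at 0.19 (adjusted p = 0.143), C1qa at 0.15 (0.3) and Cspg4 at 0.26 (0.147), and with normexp Rax was at 0.35 (0.0723), so these 4 calls were lost. The part of these cells in the differences of the long noncoding RNAs was not tested.

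Base composition moved with the differences across the array, and its values stand here beside those of the members. Among probes with a GC content above 50%, 21.5% were called higher and 1.41% lower, with a median difference of 0.24, and among those at or under 35% the shares were 1.74% and 15.8%, with a median of -0.16. The 3′ probe of Miat, with 41.7% GC, lay in the band above 40% and up to 45%, where 8.05% were called higher, 6.62% lower, and the median was 0.06. Snhg1, with 38.3% GC, lay in the band above 35% and up to 40%, where 4.1% were called higher, 10.5% lower, and the median was -0.06. Both probes were also called when the GC trend was removed within each array, at -0.94 (limma adjusted p = 0.0386) and 0.45 (0.0352).

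The same correction moved the member probes of high GC content further down. Neat1 A_55_P2740113, with 55% GC, went from -0.36 to -0.62 (adjusted p = 0.0431) and Snhg11 A_55_P2047809, also with 55% GC, from -0.31 to -0.58 (0.0453). Miat A_55_P2741126, with 55% GC as well, went from 0.33 to 0.06. Gas5 A_55_P2845828, with 35% GC, went from 0.23 to 0.40 (0.0457).

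**Figure D3:**
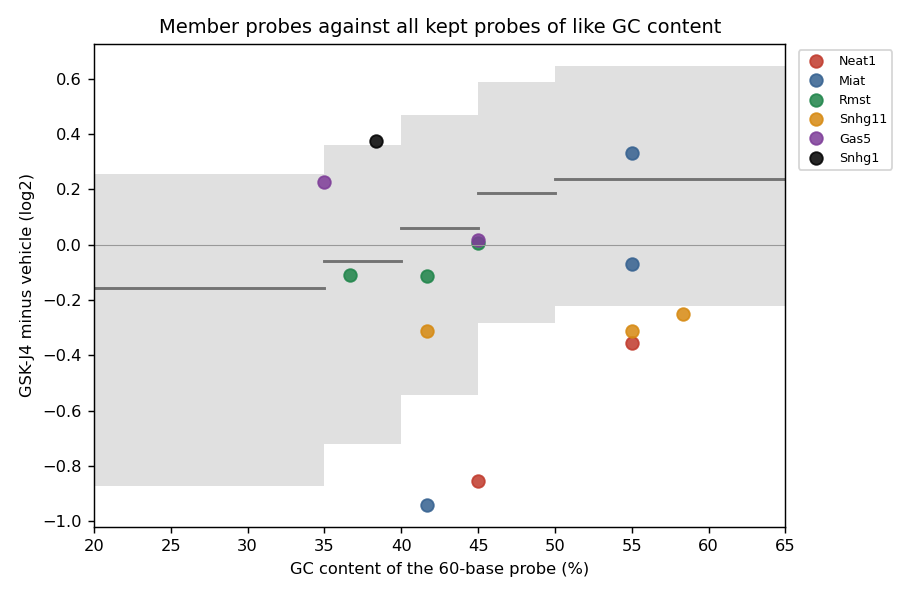
The difference of the group means (vertical axis, log2) is set against the GC content of the probe (horizontal axis, %), with grey bars from the 10th to the 90th percentile and lines at the median of all probes tested in each GC band. Miat at 41.7% and Neat1 at 45% and 55% lay under the grey range, as did 2 Snhg11 probes of 55% and 58.3%, and Snhg1 lay just above it. The Gas5 and Rmst points at 45% overlap.

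Signal level mattered for the scaling. The mean raw log2 signal of each of the 14 member probes that passed the filter was lower on the GSK-J4 arrays before normalization, and the median raw difference over all probes tested was -0.88 on the log2 scale. Raw differences were -1.46 for Miat A_55_P2508475, -1.91 for Neat1 A_65_P09473, -0.63 for Snhg1 and -0.41 for Gas5 A_55_P2845828, so Snhg1 and Gas5 were higher relative to the other probes of their array, and not in raw signal. Among the 1500 probes with a mean above 14, which include a probe each of Miat, Snhg11 and Gas5, the median difference was 0.03 in the deposited table and 0.44 after 75th percentile scaling. With that scaling Gas5 was called higher on both probes, at 0.44 and 0.51 (adjusted p = 0.0166 and 0.0167), the former equal to the median of its level.

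**Figure D4:**
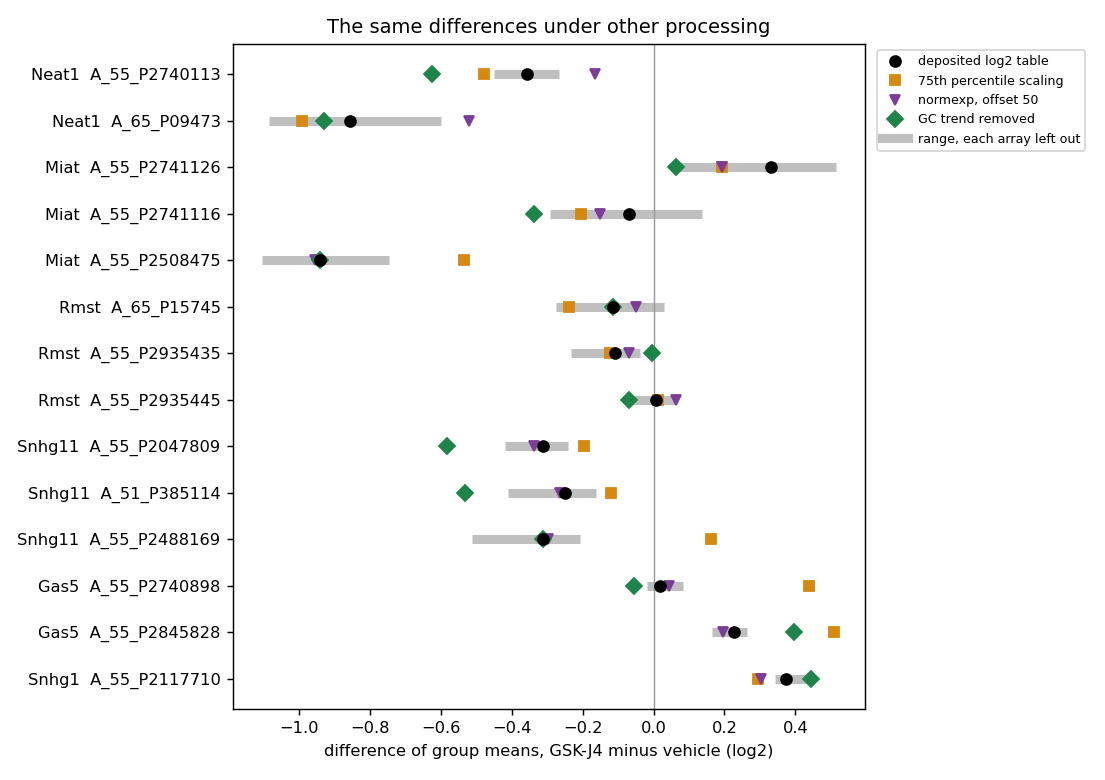
Differences of the group means, GSK-J4 minus vehicle (log2), are drawn for the 14 member probes from the deposited table and under 3 other ways of processing, with a grey bar for the range over the 6 fits that each left out an array. Both Neat1 probes and Miat A_55_P2508475 stayed left of 0 and Gas5 A_55_P2845828 and Snhg1 right of 0 in all of those drawn, whereas Snhg11 A_55_P2488169 moved from -0.31 to 0.16 with 75th percentile scaling.

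The genes whose pattern over the 6 arrays was most like that of a member were found by the root mean square difference of centred log2 values, on the brightest probe of each, among 20219 genes well above background on all 6 arrays. For Neat1 the probe listed as NEAT1 ranked second, at 0.15, after Gm34786 at 0.14, where the median gene was at 0.61. For Miat they were a transcript listed as ENSMUST00000198165, at 0.04, and a long intergenic noncoding RNA on chromosome 3, at 0.05, and these differed by -0.92 and -0.94. For Snhg1 they were Dpm3 and Gstk1, at 0.02 and 0.03, which differed by 0.37 each. For Gas5 they were Dock1 and Hist3h2ba, for Rmst Polr2m and Kdm3b, each at 0.02. For Snhg11 they were Tmc4 and an unnamed probe, each at 0.06. The median gene was at 0.19 to 0.57 for the members other than Neat1. All these genes were picked as the closest of 20219 over 6 arrays, so small distances and like differences follow from the choice.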

How the data were processed

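RNA of the hypothalamus from 3 mice labelled GSK-J4 and 3 labelled vehicle was measured on 1-colour Agilent arrays. The authors deposited the scanner output of each array (Feature Extraction 10.7.1.1, per the submitters' processing notes), from which background-corrected intensity values, flags, probe names, positions (mm9) and sequences were read. The deposited series table holds log2 values that the authors quantile normalized in GeneSpring. Its sorted columns differed by at most 0.00424, and each tracked the scanner intensity of the array it is named for (r of at least 0.999). All columns were assigned by sample name, and 0 were left over. Gene synonyms came from RefSeq (GRCm38.p6), used for names only.

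Members were all probes whose gene name equals a listed symbol, and each of the 16 had 1 spot. Groups were compared on the deposited log2 values with limma 3.58.1 (lmFit and eBayes, two-sided, no covariate) in R 4.3.3 with data.table (version 1.17.8), over the 34444 probes that every array of one group or the other showed well above background. Single values were also compared by exact permutation. For lists, the probe with the highest mean stood for a gene. The fit was tested on simulated data. The members and lists were chosen with earlier results of these data known. Named were all members with every probe, listed genes past the adjusted threshold and otherwise up to 2 with the largest changes in each direction, and for each member the 2 genes of most similar pattern. Nono, Celf3, Qk, Sf1, Sox2, Snhg3, Snhg8, Snhg12, Upf1, Smg1 and the hypothalamic and pituitary markers were named for their known roles after their values were seen.

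Alternatives were quantile normalization of the scanner intensity, 75th percentile scaling, normexp with an offset of 50, removal of a GC trend (lowess, span of 30%), other filters, a t-test per probe as in the methods, assuming equal variances or not, 1 probe per gene name, the replicate number as a block, and leaving out each array. Correlations of same-numbered arrays' deviations were 0.004, 0.017 and 0.099, so the numbers were not taken as pairs. The number of arrays limits the precision. Depth on these arrays is signal over background, which was lower in the GSK-J4 group.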

Additional observations from a re-analysis of the deposited data

How the results depend on the processing

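Of the member probes, 1 was called higher and 1 lower by limma. The count of higher calls was 2 with 75th percentile scaling (both Gas5 probes, and not Snhg1), 2 with the GC trend removed, and 0 with normexp, without a filter on dim probes, with the replicate number as a block and with either t-test. The count of lower calls was 3 with the GC trend removed, and 0 with 75th percentile scaling, without a filter, with the replicate block and with either t-test. With each array left out, 0 to 1 were higher and 0 to 2 lower. The labels do not say whether a replicate number pairs mice, and with the block 0 of the 34444 probes were called. Past the thresholds of the methods were 2 probes lower, 3 with the GC trend removed, 1 with 75th percentile scaling, normexp, the block or either t-test, and 1 to 2 with an array left out.

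Gene medians of -0.07 for Miat, -0.11 for Rmst and 0.12 for Gas5 became -0.94, 0.0059 and 0.018 with 1 probe per gene, which keeps the brightest probe, and that of Gas5 became 0.47 with 75th percentile scaling. With an array left out, the Miat median and its probe A_55_P2741116 lay between -0.29 and 0.14, the Rmst median between -0.17 and 0.0259, Rmst A_65_P15745 between -0.27 and 0.0282, Rmst A_55_P2935445 between -0.07 and 0.0622, and Gas5 A_55_P2740898 between -0.0193 and 0.0826. With the GC trend removed Rmst A_55_P2935445 was at -0.068 and Gas5 A_55_P2740898 at -0.0559. Snhg11 A_55_P2488169 was at 0.16 with 75th percentile scaling. No cause of these shifts was tested, apart from the choice of probe.

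Of the related listed genes, 6 were called higher and 10 lower. These counts were 22 and 6 with 75th percentile scaling, 2 and 6 without a filter, 0 and 0 with the block and with the t-test without equal variances, and with an array left out 0 to 3 and 0 to 7. Over all probes the 2889 higher and 2899 lower calls became 5041 and 3652 with 75th percentile scaling. Without a vehicle array they fell to 1 to 2 higher and 4 to 12 lower. On dim probes signal over background is the limit, and the 2 member probes not well above background on any array have no measured difference.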
